A study of Mus musculus with 25 samples.

Results

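Genes of the B cell and of its immunoglobulin heavy chain were followed in the gonadal white adipose tissue of mice on a low-fat or a high-fat diet. The 9 genes were Ighm, Cd79a, Cd79b, Ms4a1, Cd22, Blk, Fcrla, Tnfrsf13c and Pou2af1, of 22180 genes with a single symbol in the table of log2 array values. Each gene was read from the transcript cluster (the probe set of 1 transcript unit on the array) with the highest mean over the 25 arrays. Ighm had 7 clusters with its symbol, so the 9 genes had 15 clusters of 34472, and the Ighm clusters are numbered 1 to 7 here by falling mean. Cluster 1 stands for Ighm wherever a single value is given.

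All mice were heterozygous males carrying the apoE3L and CETP transgenes, a humanised lipoprotein background that every group shared, and no group without the transgenes was analysed here. From 12 weeks of age they received a low-fat diet (LFD, 10% fat and 70% carbohydrate) or a high-fat diet (HFD, 60% fat, 20% carbohydrate and 0.25% cholesterol) for 4, 8 or 12 weeks. The arrays were 4 LFD and 3 HFD at 4 weeks, 4 and 4 at 8 weeks, 4 and 4 at 12 weeks, and 2 from chow-fed mice aged 12 weeks at the start. The labels give the mice on diet for 12 weeks an age of 34 weeks, which is more than the start age and the time on diet add up to, so time on diet is used.

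A B cell carries its antigen receptor on its surface. The receptor is an immunoglobulin, with a heavy chain that in naive cells is of the mu type, held by the signalling pair CD79a and CD79b. Signals from it run through Src family kinases and Syk and are damped by inhibitory receptors such as CD22. In adipose tissue B cells are found among the stromal cells and in small lymphoid clusters, and IgM is the antibody that innate-like B cells secrete there.

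Array medians lay between 5.04 and 5.36, and the mean of 9 adipocyte markers lay between 11.03 and 12.25 in the 25 arrays. Some arrays also held transcripts of other organs. The mean of 28 hepatocyte genes lay between 8.94 and 10.68 in 11 arrays (numbers 1 and 2 of LFD and 2 to 4 of HFD at 8 weeks, and numbers 1, 2 and 4 of either diet at 12 weeks) and between 5.24 and 7.41 in the other 14. Xist, normally transcribed only with a second X chromosome, read 5.03 to 6.76 in those 11 arrays and 3.36 to 3.92 elsewhere, which goes against the male label. Epididymis genes (11 measured) averaged 11.78 in the first chow array, 5.37 in the first LFD array of 4 weeks and 10.01 in the first HFD array of 4 weeks, and at most 4.14 in the rest. For Ighm, Cd22 and the signalling genes, values from subsets of these arrays are given beside the results. In bulk tissue, fewer cells of a type and less RNA per cell cannot be told apart.

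Ighm encodes the constant region of the mu heavy chain (chr12:113418826-113422730, GRCm38.p6, RefSeq). Its cluster 1 was higher on HFD than on LFD after 4, 8 and 12 weeks, by 3.30-fold, 2.64-fold and 2.33-fold. At each time every HFD array lay above every LFD array, which held for 4.68%, 5.01% and 7.52% of all genes. The other 6 clusters with the Ighm symbol did not follow it at 4 or 8 weeks, and neither did the genes of the receptor's signalling pair.

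After 4 weeks the LFD arrays read 10.54, 12.03, 11.54 and 10.70 for Ighm cluster 1 and the HFD arrays 12.92, 12.67 and 13.18 (log2 values). After 8 weeks the LFD arrays read 11.14, 11.72, 11.14 and 11.05 and the HFD arrays 12.72, 12.81, 12.62 and 12.50. After 12 weeks the LFD arrays read 10.29, 11.26, 11.71 and 12.23 and the HFD arrays 12.58, 12.64, 12.52 and 12.64. The HFD arrays lay close together at every time, while the LFD arrays were spread over more than 1 log2 unit at 4 and 12 weeks. The SD at 12 weeks was 0.06 on HFD and 0.82 on LFD (n = 4 each).

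The difference of Ighm, HFD minus LFD on the log2 scale, was 1.72 ± 0.34 (SE) at 4 weeks, with an adjusted p of 0.0299 (limma, Benjamini-Hochberg over all genes). It was 1.40 ± 0.31 at 8 weeks (adjusted p = 0.0194) and 1.22 ± 0.31 at 12 weeks (adjusted p = 0.0253) by the same limma test. Averaged over the 3 times it was 1.45 ± 0.19 (adjusted p = 2.47e-05, limma). The difference at 12 weeks minus that at 4 weeks was -0.50 ± 0.46, and the interaction of diet and time was not called for Ighm (adjusted p = 0.952, moderated F test of limma), in a test that called 0% of all genes and so does not show a constant difference. Ighm was 1 of 31 genes called higher at all 3 times, which was 0.14% of all genes, and 0.983% of all genes had no overlap in that direction at all 3 times.

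The call at 4 weeks was lost without the 3 arrays that held epididymis transcripts, where the difference was 1.50 with an adjusted p of 0.133 (limma). It was also lost when any of 5 of the 7 arrays was left out (LFD arrays 1 and 4 and HFD arrays 1, 2 and 3). At 8 weeks 4 of 8 such fits lost the call (without LFD array 1, 3 or 4 or HFD array 1), and at 12 weeks 6 of 8 (without LFD array 1 or 2 or any HFD array). The difference stayed between 0.86 and 2.00 in these fits, with adjusted p from 0.00477 to 0.309 (limma), and the average over time stayed called in all 23. Leaving out the arrays with high hepatocyte transcripts left 2 LFD arrays and 1 HFD array at 8 weeks and 1 of each at 12 weeks. All 7 arrays at 4 weeks were kept, and the difference there stayed 1.72. The 4-week call was lost (adjusted p = 0.253, limma), with the spread and the adjustment taken from fewer arrays. In that fit the difference was 1.62 at 8 weeks, 0.81 at 12 weeks and 1.39 averaged, none of them called. A lone array is assumed there to vary like the other groups, so effect sizes alone are given. In a fit of the compared groups alone the calls at 4 and 12 weeks were also lost (adjusted p = 0.242 and 0.0583, limma). Among the arrays with high hepatocyte transcripts alone, the difference was 1.21 at 8 weeks (adjusted p = 0.157, limma) and 1.36 at 12 weeks (adjusted p = 0.0281).

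**Figure D1:**
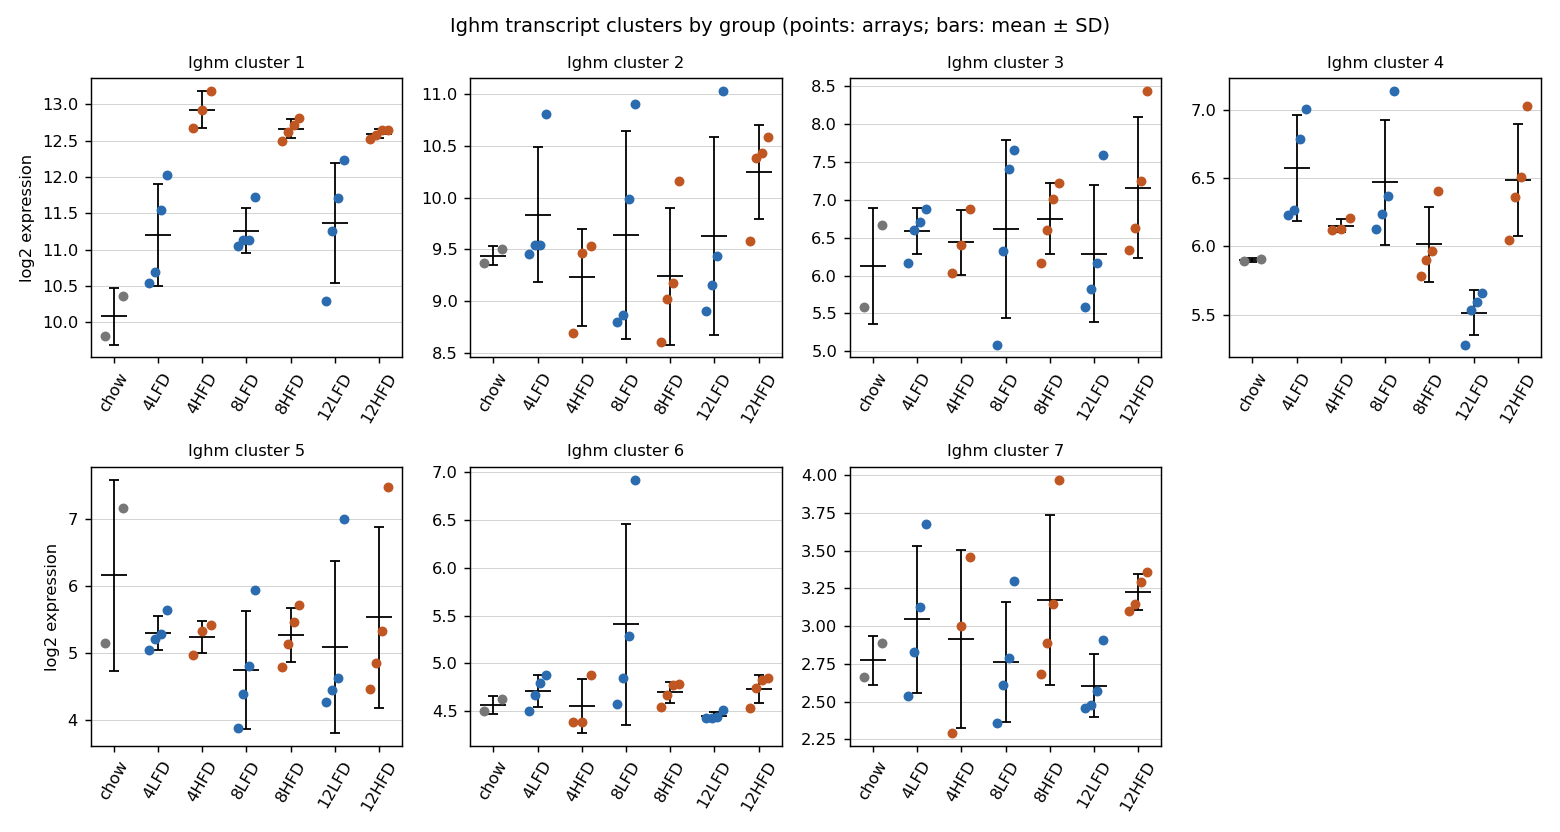
Log2 expression of the 7 Ighm transcript clusters by group, named by weeks on diet and diet; points are arrays, bars are the group mean ± SD, and each panel has its own axis. In cluster 1 the HFD arrays lie between 12.50 and 13.18 and the LFD arrays between 10.29 and 12.23, while clusters 2, 3 and 5 show arrays of both diets mixed.

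Against chow, cluster 1 was higher on HFD at 4 weeks. The chow arrays read 9.81 and 10.36, below every array on either diet at 4 weeks (8.76% of all genes lay so for LFD and 15.3% for HFD). HFD at 4 weeks minus chow was 2.84 ± 0.41 (adjusted p = 3.53e-04, limma), and 4.18% of all genes were called in that comparison. LFD at 4 weeks minus chow was 1.12 ± 0.39 and did not pass (adjusted p = 0.121, limma); 1.55% of genes were called there. Chow array 1 was among those with epididymis transcripts, and the mice on diet were also older than the chow mice, so that age and diet cannot be told apart here. None of the other 8 genes was called against chow on either diet. Cd79a lay higher in each array at 4 weeks than in the chow arrays (4.42 and 4.80), by 0.60 ± 0.36 on LFD and 0.55 ± 0.38 on HFD, which did not pass.

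The 7 clusters with the Ighm symbol did not move together at 4 or 8 weeks. At 12 weeks the mean of all 7 was higher on HFD, by 0.28 to 1.22, where 10663 of 22180 genes had a difference above 0. In the fit over all clusters, cluster 1 was the 1 of 7 called at 4 weeks and at 8 weeks (0.154% and 1.26% of all clusters called), and clusters 1 and 4 were called at 12 weeks (2.91%). The gene table gives the 7 clusters the same gene. Where on the locus the probes of each lie is not given in the sources used here, and probes in the heavy chain locus may share sequence with neighbouring segments, so it is uncertain which transcripts each cluster reads.

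Cluster 4 was called higher on HFD at 12 weeks, and its arrays lay in the opposite order at 4 weeks. At 4 weeks it read 6.27, 6.23, 7.01 and 6.79 on LFD and 6.21, 6.13 and 6.12 on HFD, so that each HFD array lay below each LFD array (4.26% of all clusters did so). At 12 weeks it read 5.53, 5.28, 5.66 and 5.59 on LFD and 6.05, 7.03, 6.51 and 6.36 on HFD, the reverse order with no overlap (5.87% of all clusters). The differences were -0.42 ± 0.24 at 4 weeks (adjusted p = 0.626, limma), -0.46 ± 0.22 at 8 weeks (adjusted p = 0.425) and 0.97 ± 0.22 at 12 weeks (adjusted p = 0.0150). From 4 to 12 weeks the LFD mean of cluster 4 went from 6.575 to 5.515. This difference of -1.06 ± 0.22 was called (adjusted p = 0.0110, limma over all clusters). On HFD the mean went from 6.15 to 6.49, by 0.33 ± 0.24, and was not called (adjusted p = 0.628, limma). The interaction of diet and time had an unadjusted p of 1.44e-04 for this cluster, which did not pass over all clusters (adjusted p = 0.830, limma; 0% of clusters called).

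Cluster 2 was 0.61 ± 0.51 lower at 4 weeks, 0.40 ± 0.47 lower at 8 weeks and 0.62 ± 0.47 higher at 12 weeks on HFD, none of them past the threshold. Its LFD arrays read 9.45, 9.54, 10.81 and 9.54 at 4 weeks, 9.99, 10.91, 8.86 and 8.80 at 8 weeks, and 9.43, 11.03, 8.90 and 9.15 at 12 weeks. At 4 and 12 weeks 1 LFD array stood above the others, and at 8 weeks LFD arrays 1 and 2 lay above arrays 3 and 4. The HFD arrays, at 8.60 to 10.59, overlapped with the LFD arrays. Cluster 3 differed by -0.15 ± 0.55, 0.13 ± 0.51 and 0.87 ± 0.51 at the 3 times, cluster 5 by -0.06 ± 0.65, 0.52 ± 0.60 and 0.44 ± 0.60. Clusters 6 and 7 had no overlap at 12 weeks, as 5.87% of all clusters higher on HFD, with differences of 0.28 ± 0.30 and 0.62 ± 0.27, and were not called at any time. Without the arrays with high hepatocyte transcripts, clusters 3 and 5 differed by 1.05 and 1.32 averaged over the times (0.28 and 0.30 with all arrays). Cluster 4 differed by 0.85 at 12 weeks in that fit. Some groups held 1 array there, so effect sizes alone are given and no call is read from them. When Ighm was taken as the mean of its 7 clusters, the differences were 0.03, 0.13 and 0.72 and none was called.

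Cd79a and Cd79b encode the signalling pair of the receptor (chr7:24897497-24901858 and chr11:106311341-106314562). Cd79a read 5.10, 5.57, 5.10 and 4.29 on LFD and 5.04, 5.34, 5.97 and 5.46 on HFD at 12 weeks, and the groups overlapped. Its difference was 0.44 ± 0.29 there (95% interval -0.17 to 1.04; adjusted p = 0.521, limma), after -0.04 ± 0.32 at 4 weeks and 0.20 ± 0.29 at 8 weeks. Cd79b differed by 0.28 ± 0.24, 0.12 ± 0.22 and 0.11 ± 0.22, with arrays of the diets overlapping at each time. Neither gene was called at any time. The 95% interval of Cd79b at 12 weeks ran from -0.35 to 0.58.

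Ms4a1 encodes CD20, a surface protein of mature B cells (chr19:11249679-11266149). It differed by -0.18 ± 0.32, -0.05 ± 0.30 and 0.43 ± 0.30 at 4, 8 and 12 weeks. At 12 weeks it read 3.84, 4.67, 4.54 and 4.06 on LFD and 4.08, 4.45, 5.21 and 5.11 on HFD; arrays 3 and 4 on HFD lay above all LFD arrays and the other two did not. No difference of Ms4a1 passed the threshold.

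Cd22 encodes the inhibitory lectin of the receptor complex (chr7:30865404-30880342), and it was the other gene of the 9 that rose. At 4 weeks the arrays read 5.26, 5.28, 4.96 and 4.90 on LFD and 5.14, 5.11 and 5.22 on HFD, with the HFD arrays inside the LFD range. At 8 weeks they read 5.13, 5.37, 4.92 and 4.91 on LFD and 5.70, 5.43, 5.27 and 5.15 on HFD, with overlap. At 12 weeks they read 4.62, 5.24, 4.84 and 5.08 on LFD and 5.56, 5.43, 6.06 and 5.25 on HFD, and each HFD array lay above each LFD array, in 1 case by 0.01. Of all genes, 7.52% lay so. The difference went from 0.06 ± 0.18 through 0.30 ± 0.16 (adjusted p = 0.443, limma) to 0.63 ± 0.16 at 12 weeks (adjusted p = 0.0272), a 1.55-fold rise, and was 0.33 ± 0.10 averaged over the times (adjusted p = 0.0306, limma). The interaction of diet and time was not called for Cd22 (adjusted p = 0.886, limma), so an increase of the difference with time was not shown.

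The call of Cd22 at 12 weeks was lost without LFD array 1 or 3 or without HFD array 1 or 3, with values of 0.47 to 0.74 over the 8 fits that left out an array. Among the arrays with high hepatocyte transcripts the difference was 0.03 at 8 weeks and 0.43 at 12 weeks (adjusted p = 0.959 and 0.143, limma). Without them it was 0.79 at 8 weeks, 1.22 at 12 weeks and 0.69 averaged. That left 1 HFD array at 8 weeks and 1 array of each diet at 12 weeks, so effect sizes alone are given. In a fit of the compared groups alone the 12-week call was lost (adjusted p = 0.0877, limma). The averaged call was lost in 9 of 23 fits that left out an array, with a highest adjusted p of 0.0663 (limma). These arrays were LFD 3 and 4 and HFD 3 at 4 weeks, LFD 3 and 4 and HFD 1 at 8 weeks, and LFD 1 and 3 and HFD 3 at 12 weeks.

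Sequence around a listed start site is given for Cd22, the called gene with an entry in the RefSeq promoter table, and for Cd79a. The values of Cd79a moved with those of other B cell genes. Each window holds 300 bases (GRCm38.p6, 250 bases before the start and 50 after, 5′ to 3′ on the gene's strand). Capitals mark the E-box CAGGTG or its reverse complement, the site of E proteins such as Tcf3 that act in B cell development.
Cd22 (chr7:30878979-30879278, minus strand): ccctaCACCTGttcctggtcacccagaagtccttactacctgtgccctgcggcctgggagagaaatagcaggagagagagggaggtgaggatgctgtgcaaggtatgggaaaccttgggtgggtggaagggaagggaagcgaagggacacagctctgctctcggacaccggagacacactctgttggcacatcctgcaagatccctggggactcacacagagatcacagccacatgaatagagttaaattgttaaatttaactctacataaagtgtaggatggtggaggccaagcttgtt
Cd79a (chr7:24897247-24897546, plus strand): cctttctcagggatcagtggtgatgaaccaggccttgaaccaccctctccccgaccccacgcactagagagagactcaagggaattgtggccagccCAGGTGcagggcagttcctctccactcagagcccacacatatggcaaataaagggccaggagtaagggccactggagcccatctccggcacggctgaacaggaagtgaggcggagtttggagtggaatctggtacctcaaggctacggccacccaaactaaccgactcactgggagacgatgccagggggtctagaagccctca
Of the 9 genes, 5 had a promoter in the table, and CAGGTG was found on either strand in 4 of them (Cd22, Cd79a, Fcrla and Tnfrsf13c, not Pou2af1), against 20.2% of the 32851 promoters of the table. Counted from the listed start site, it began at -154 in Cd79a, -245 in Cd22, -96 in Tnfrsf13c and -69 in Fcrla. The windows of Cd22 and Fcrla lie inside the gene intervals given here, not at their 5′ ends. The octamer ATGCAAAT, which the partner factors of Pou2af1 bind, was in 0 of 5 and in 1.74% of all promoters, and its part ATGCAAA, which overlaps it, in 0 of 5 and 4.63%. These are matches of letters in a window and were not tested against the array values.

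Of the remaining 4 genes none was called between the diets at any time. Blk encodes a Src family kinase of B cells (chr14:63372837-63417187) and differed by -0.02 ± 0.19, -0.21 ± 0.17 and -0.14 ± 0.17. Fcrla, an Fc receptor-like protein inside B cells (chr1:170917594-170932216), differed by 0.19 ± 0.14, -0.12 ± 0.13 and 0.35 ± 0.13. Its 12-week difference had an unadjusted p of 0.0112 and an adjusted p of 0.136 (limma), with LFD arrays at 4.08 to 4.57 and HFD arrays at 4.47 to 4.91.

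Tnfrsf13c encodes the receptor for the survival factor BAFF (chr15:82221742-82224380) and differed by 0.21 ± 0.13, -0.05 ± 0.12 and 0.22 ± 0.12. Pou2af1 encodes the coactivator that works with octamer factors at immunoglobulin promoters (chr9:51213690-51240079) and differed by 0.11 ± 0.18, -0.05 ± 0.17 and 0.14 ± 0.17. The arrays of the diets overlapped for all 4 of these genes at each time.

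**Figure D2:**
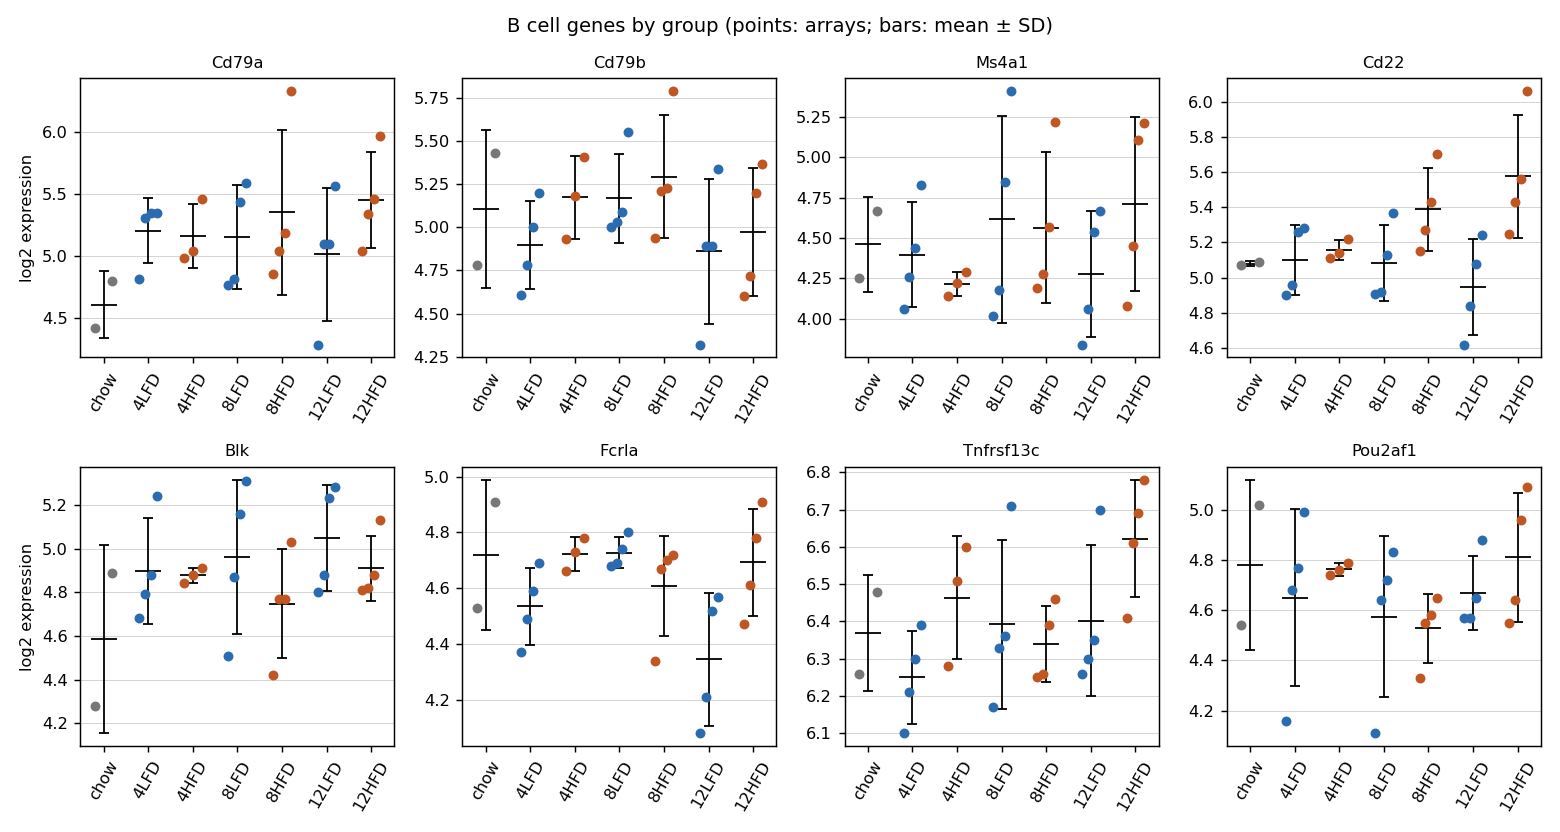
Log2 expression of the 8 genes other than Ighm by group, named by weeks on diet and diet; points are arrays, bars are the group mean ± SD, and each panel has its own axis. Cd22 is the 1 gene of the 8 whose HFD and LFD arrays do not overlap at 12 weeks. Its HFD arrays lie above its LFD arrays, as they do for 7.52% of all genes. None of the 8 is without overlap at 4 or 8 weeks.

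Counted over the 9 genes, 1 was called higher at 4 weeks, where 0.212% of all genes were called (0.189% higher). At 8 weeks 1 was called, with 2.4% of all genes (1.17% higher), and at 12 weeks 2, with 4.46% of all genes (3.13% higher). Averaged over the times 2 were called, with 10.5% of all genes (6.03% higher). None was called lower. The median difference of the 9 was 0.11 at 4 weeks, -0.05 at 8 weeks and 0.35 at 12 weeks, where the medians over all genes were -0.00, -0.01 and -0.01. At 12 weeks 8 of the 9 differences were above 0, as were 10663 of those of all 22180 genes. Apart from Ighm and Cd22 none of the 9 passed.

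**Figure D3:**
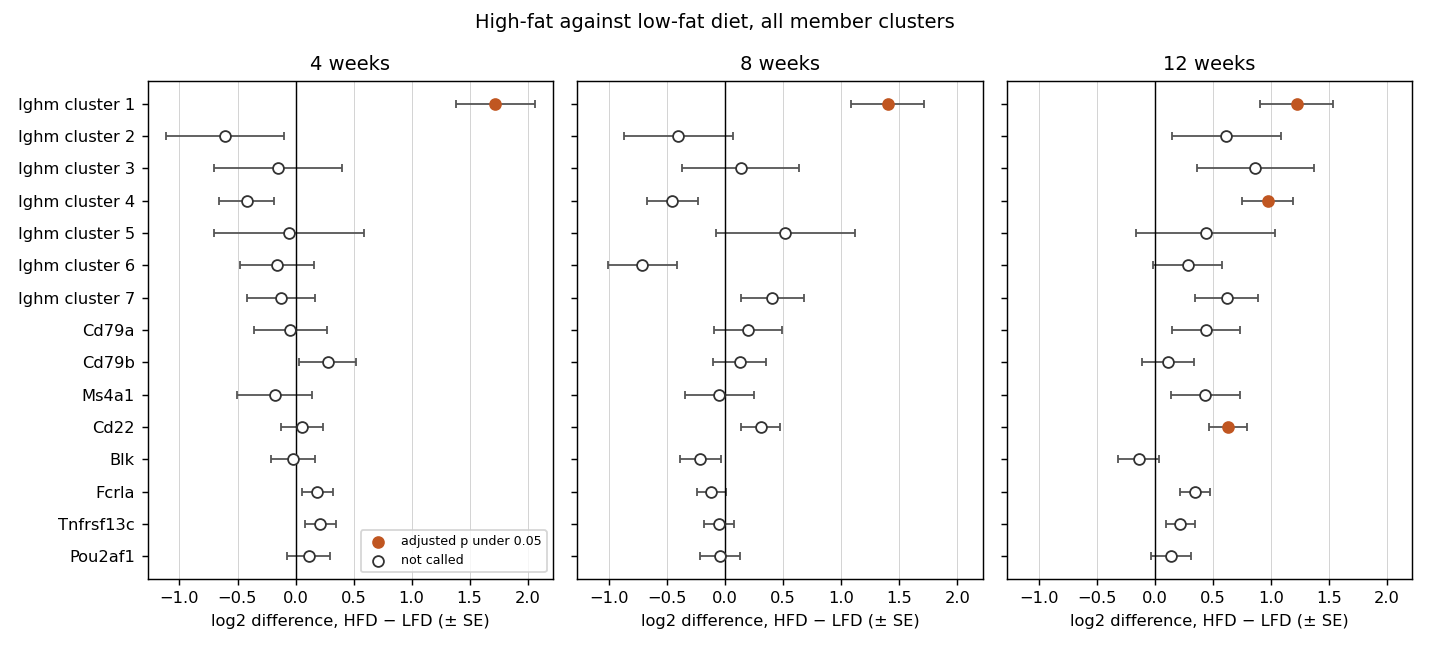
Difference between HFD and LFD (log2, ± SE, from the fit over all clusters) for the 7 Ighm clusters and the 8 other genes at 4, 8 and 12 weeks; filled points have a Benjamini-Hochberg adjusted p under 0.05. Ighm cluster 1 is filled at each time, and Ighm cluster 4 and Cd22 are filled at 12 weeks alone.

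Comparing times within a diet called none of the 9 genes, with Ighm read from cluster 1. The labelled age differed too (16, 20 and 34 weeks at 4, 8 and 12 weeks on diet). High hepatocyte transcripts lay in arrays of 8 and 12 weeks alone. Time on diet, age and this admixture cannot be told apart in these comparisons. Ighm cluster 4 was called lower at 12 than at 4 weeks within LFD, as given above. For 12 against 4 weeks, 0 of 9 were called within LFD (0 at an unadjusted p under 0.05; 0.681% of all genes called) and 0 of 9 within HFD (1 unadjusted; 0.573% of all genes). For 8 against 4 weeks 0 of 9 were called within LFD (0 unadjusted; 0.636% of all genes) and within HFD (0 unadjusted; 0% of all genes), all by limma. The unadjusted one was Cd22, which was 0.42 ± 0.18 higher at 12 than at 4 weeks of HFD with no overlap (adjusted p = 0.371, limma; 6.68% of all genes lay so). Group means of Ighm were 12.92, 12.66 and 12.60 on HFD, where each 12-week array lay below each 4-week array (5.09% of all genes did), and 11.20, 11.26 and 11.37 on LFD. The interaction called 0 of the 9 genes (1 unadjusted, Fcrla, adjusted p = 0.886; 0% of all genes called, limma).

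Light chains and other immunoglobulin segments were looked at next, in the 25 clusters that carry such a symbol other than Ighm, a set chosen after the values had been seen. None was called in limma at 4, 8 or 12 weeks, with 1, 0 and 3 at an unadjusted p under 0.05. Their median difference was -0.08, 0.06 and 0.47, and 20 of the 25 were above 0 at 12 weeks (10663 of 22180 genes were). The segment Igkv9-120 had a difference of 2.44 ± 0.68 at 12 weeks (adjusted p = 0.0527, limma). It was the 1 of the 25 without overlap there, near the 5.87% of all clusters that lay so, higher on HFD. At 4 weeks 1 of the 25 was without overlap and lower on HFD, where 4.26% of all clusters lay so. Among the 4 measured genes of the list of immunoglobulin loci, Ighm was the 1 called at each time. Iglv1, a lambda variable segment, was 1.00 higher on HFD at 12 weeks without passing (adjusted p = 0.52), and Ighg3, the constant region of IgG3, differed by -0.09 there. Ighd, Igkc, Igha, Ighg1, Cd72, Cd74 and Tnfsf13 were not analysed here.

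Genes that carry the receptor's signal were also followed. Of 25 measured genes in the list of the B cell receptor and its signalling, 2 were called higher at 4 weeks, 6 at 8 weeks and 14 at 12 weeks, and none was called lower, where 0.189%, 1.17% and 3.13% of all genes were called higher. The list's median difference was 0.24, 0.39 and 0.63. Ighm and Malt1, a protease of antigen receptor signalling, were called at all 3 times. Malt1 was higher by 0.76, 0.75 and 1.08 (adjusted p = 0.0392, 0.00746 and 3.22e-04, limma).

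Syk, the kinase that docks on the CD79 pair, rose by 1.01 ± 0.18 at 8 weeks and 1.28 ± 0.18 at 12 weeks (adjusted p = 0.00498 and 5.56e-04, limma). Blnk, the adaptor downstream of Syk, rose by 1.05 ± 0.27 and 1.48 ± 0.27 (adjusted p = 0.0419 and 0.00250). Fcgr2b, the inhibitory Fc receptor, rose by 0.62 ± 0.12 at 8 weeks (adjusted p = 0.00913). At 12 weeks Ptpn6, the phosphatase that CD22 recruits, rose by 0.76 ± 0.13 and Inpp5d, a lipid phosphatase of inhibitory receptors, by 0.91 ± 0.16 (adjusted p = 0.00165 and 0.00221, limma). Of the 5 genes of the list that are also among the 9, Ighm and Cd22 were called and Cd79a, Cd79b and Blk were not.

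Many of these signalling genes are also expressed by macrophages and other myeloid cells. The 12 macrophage markers were called higher in 0, 4 and 9 cases at 4, 8 and 12 weeks (4 unadjusted at 4 weeks, limma; 0.189%, 1.17% and 3.13% of all genes called higher), with a median difference of 0.35, 0.69 and 0.88, and their mean lay at 8.51 to 8.95 on LFD and 9.49 to 9.95 on HFD at 12 weeks. The 11 T cell markers were called in 0 cases at each time (2, 2 and 4 unadjusted, limma), with medians of -0.07, 0.25 and 0.21, and Cd3e, a chain of the T cell receptor complex, differed by 0.58 at 12 weeks without passing. Alb, the liver's albumin gene, differed by -0.75, 1.69 and -1.55 and was not called. The 6 plasma cell markers were called in 0 cases (0 unadjusted at each time), with means over the markers of 5.58 to 5.93 on LFD and 5.75 to 6.16 on HFD at 12 weeks. The part of the macrophage rise in the signalling genes, Ighm and Cd22 was not tested.

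With subsets of the arrays, settings added after the values had been seen, and with single arrays left out, the counts moved. At 8 weeks the signalling genes called went from 6 to 3 without LFD array 1, 3 or 4 or HFD array 1. It was 11 without the arrays with epididymis transcripts, 11 with the arrays of high hepatocyte transcripts as a block and 0 among those arrays alone. At 12 weeks it was 8 without LFD array 1 or HFD array 1, and 13 among the arrays with high hepatocyte transcripts alone. At 4 weeks it was 0 without the arrays with epididymis transcripts, and 0 without LFD array 1 or 4 or any HFD array.

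Surface genes of the B cell formed another list. Of its 23 genes, 0 were called at 4 weeks (1 unadjusted, limma), 1 at 8 weeks and 3 at 12 weeks, with medians of 0.12, 0.18 and 0.22. All these calls were higher on HFD, where 0.189%, 1.17% and 3.13% of all genes were called higher (0.212%, 2.4% and 4.46% in either direction). A single call among 23 genes at 8 weeks is too few to set against these shares. Cd180, a Toll-like receptor homologue of B cells and myeloid cells, rose by 1.32 ± 0.27 at 8 weeks and 1.69 ± 0.27 at 12 weeks (adjusted p = 0.0126 and 0.00111, limma). Cxcr4, the receptor for Cxcl12, rose by 1.01 ± 0.22 and the tetraspanin Cd37 by 0.85 ± 0.22 at 12 weeks. Cr2, the complement receptor of mature B cells, differed by 0.29 ± 0.20, Fcer2a, the IgE receptor CD23, by 0.22 ± 0.14, and Tnfrsf13b, the receptor TACI, by -0.14 ± 0.16 at 12 weeks, none past the threshold.

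Of 17 transcription factors of the B lineage, 0 were called at 4 weeks (1 unadjusted), 0 at 8 weeks (2 unadjusted, limma) and 3 at 12 weeks, where 3.13% of all genes were called higher. It was 2 at 8 weeks without HFD array 4 and 5 at 12 weeks without HFD array 2. The 3 were Ikzf1 (0.97 ± 0.16), Irf8 (1.02 ± 0.20) and Spi1 (1.19 ± 0.23), the last being PU.1, which also directs myeloid development. Pax5, the factor that fixes B cell identity, differed by 0.10 ± 0.14, 0.16 ± 0.13 and -0.01 ± 0.13, and Pou2f2, the octamer partner of Pou2af1, by -0.01 ± 0.14, 0.07 ± 0.13 and 0.07 ± 0.13.

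Among 18 genes of plasma cells and antibody secretion, 1, 2 and 2 were called higher at the 3 times (0.189%, 1.17% and 3.13% of all genes), and the median was 0.04, 0.17 and -0.01. Edem1, which hands misfolded glycoproteins to degradation in the endoplasmic reticulum and is active in many cell types, rose by 0.65 ± 0.12, 0.43 ± 0.11 and 0.46 ± 0.11 (adjusted p = 0.0178, 0.0405 and 0.0187, limma). Slamf7, a receptor of plasma cells and myeloid cells, rose by 1.07 ± 0.24 at 8 weeks and 1.50 ± 0.24 at 12 weeks. Jchain, which links IgM units, differed by -0.67 ± 0.55, 0.02 ± 0.51 and 0.70 ± 0.51 and was not called. At 12 weeks Mzb1 (-0.02), Xbp1 (-0.15), Prdm1 (0.20), Irf4 (0.24), Sdc1 (0.42) and Tnfrsf17 (-0.03), all genes of antibody-secreting cells, did not pass either. The 2 calls at 8 weeks became 1 or 0 whichever array of that time was left out. The call at 4 weeks was lost without LFD array 1 or 4 or HFD array 1 or 3, and at 12 weeks 1 call was left without LFD array 1 or 2 or HFD array 3.

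Ligands for B cell survival and homing were called in 0 of 17 cases at each time (2, 4 and 1 unadjusted, limma), with medians of -0.14, 0.06 and 0.01. Tnfsf13b, which encodes BAFF, differed by -0.31 ± 0.15, -0.25 ± 0.14 and 0.01 ± 0.14. Cxcl13, the chemokine of B cell follicles, differed by -0.44 ± 0.78, 0.17 ± 0.72 and -0.31 ± 0.72. Il7 differed by -0.41 ± 0.17 at 4 weeks and Il21 by 0.36 ± 0.12 at 8 weeks (adjusted p = 0.425 and 0.120, limma). Ccl20, a chemokine for Ccr6, differed by 0.32 at 8 weeks and Il33, an alarmin of stromal cells, by -0.40 at 12 weeks.

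**Figure D4:**
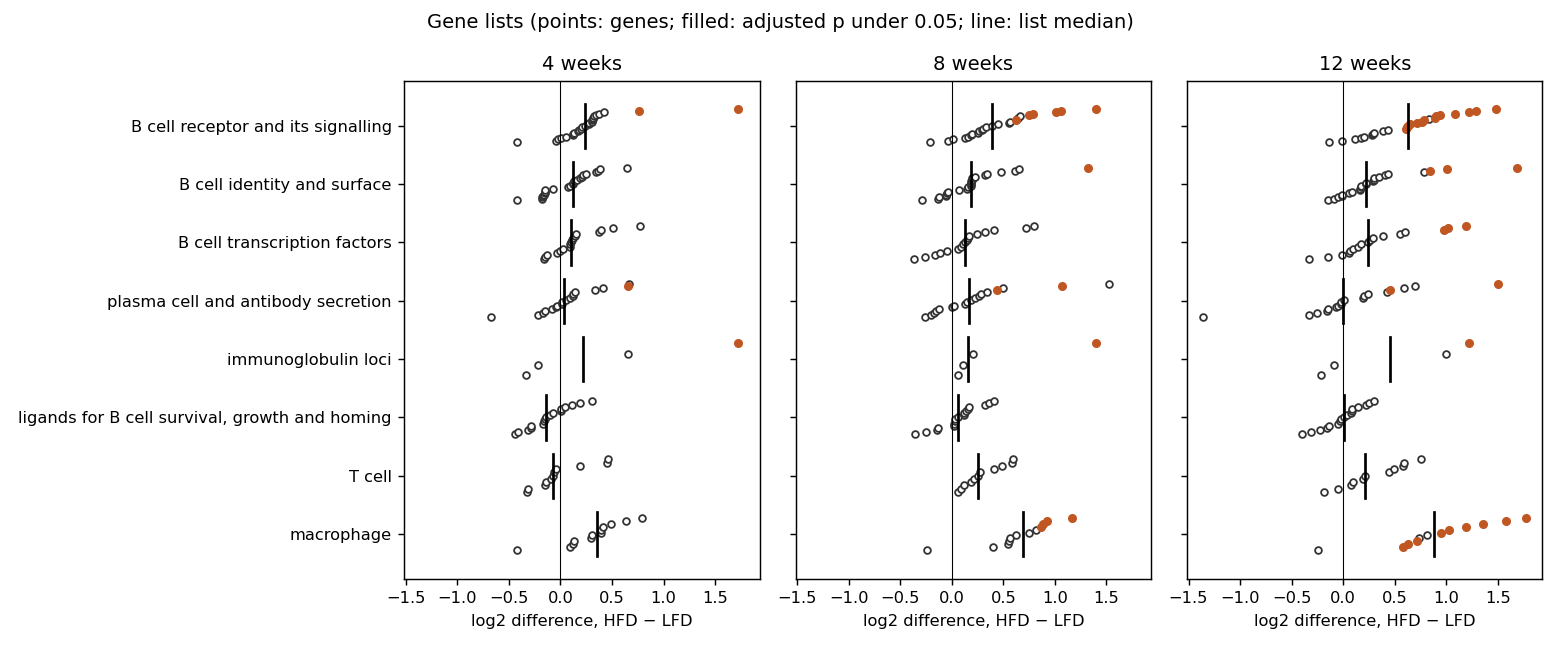
Difference between HFD and LFD (log2) of each measured gene in the 6 B cell lists and in the T cell and macrophage marker lists at 4, 8 and 12 weeks; filled points have an adjusted p under 0.05 and the black line is the list median. At 12 weeks 14 of 25 receptor and signalling genes, 9 of 12 macrophage markers and 0 of 11 T cell markers are filled, where 3.13% of all genes were called higher.

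Across the 25 arrays, some of the B cell genes other than Ighm cluster 1 varied together. Among 120 pairs formed from the 15 clusters and Jchain, 21 passed an adjusted p of 0.05 for Pearson's r (100000 permutations of the arrays, two-sided, Benjamini-Hochberg over the pairs). The pairs include Ighm clusters with each other and cluster 1 with Cd22. The share among pairs of other genes was not computed, so this count has no background to be set against. Cd79a and Ms4a1 had r = 0.70 and rho = 0.66 (permutation p = 3e-05 and 4.7e-04, adjusted 0.0018 and 0.00787), and r = 0.56 without the 2 arrays farthest from the median of Cd79a. With the group means removed r was 0.76, and it was 0.74 in the 11 arrays with high hepatocyte transcripts and 0.60 in the other 14.

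Ighm cluster 3 went with Jchain at r = 0.88 and rho = 0.86 (permutation p = 1e-05 for both, the smallest that 100000 permutations give, adjusted 0.0012 and 6e-04). Without the 2 farthest arrays r was 0.80, with group means removed 0.89, and within the arrays with high and low hepatocyte transcripts 0.76 and 0.92. Cluster 3 also went with Ms4a1 (r = 0.73, rho = 0.74, adjusted permutation p = 0.0018 and 0.0027) and with Cd79a (r = 0.67, rho = 0.72, adjusted permutation p = 0.0044 and 0.0027). Its 3 highest readings were 8.43 (HFD, 12 weeks, array 3), 7.65 (LFD, 8 weeks, array 2) and 7.59 (LFD, 12 weeks, array 2), so high arrays came from both diets.

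Cluster 1 passed with Cd22 alone among its 15 partners (r = 0.54, rho = 0.59, adjusted permutation p = 0.0302 and 0.0169). Its r was 0.30 with Cd79a, 0.08 with Ms4a1, 0.20 with Jchain, 0.28 with cluster 3 and 0.02 with cluster 2 (adjusted permutation p of 0.266, 0.804, 0.522, 0.333 and 0.973). With the mean of the macrophage markers its r was 0.80 and rho 0.80 (permutation p = 2e-05 and 3e-05, adjusted 8e-04 and 0.00107 over 80 pairs with marker means), 0.71 without the 2 farthest arrays, 0.49 with the group means removed, and 0.85 and 0.77 in the arrays with high and low hepatocyte transcripts. Cd22 had r = 0.74 and rho = 0.75 with the same mean (adjusted permutation p = 8e-04 and 0.00107), and 0.49 with the group means removed. The means of the T cell, adipocyte, hepatocyte and epididymis markers were compared too, and their values are not given here. A link particular to macrophages is therefore not shown. Differences between the groups enter the values over all arrays.

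**Figure D5:**
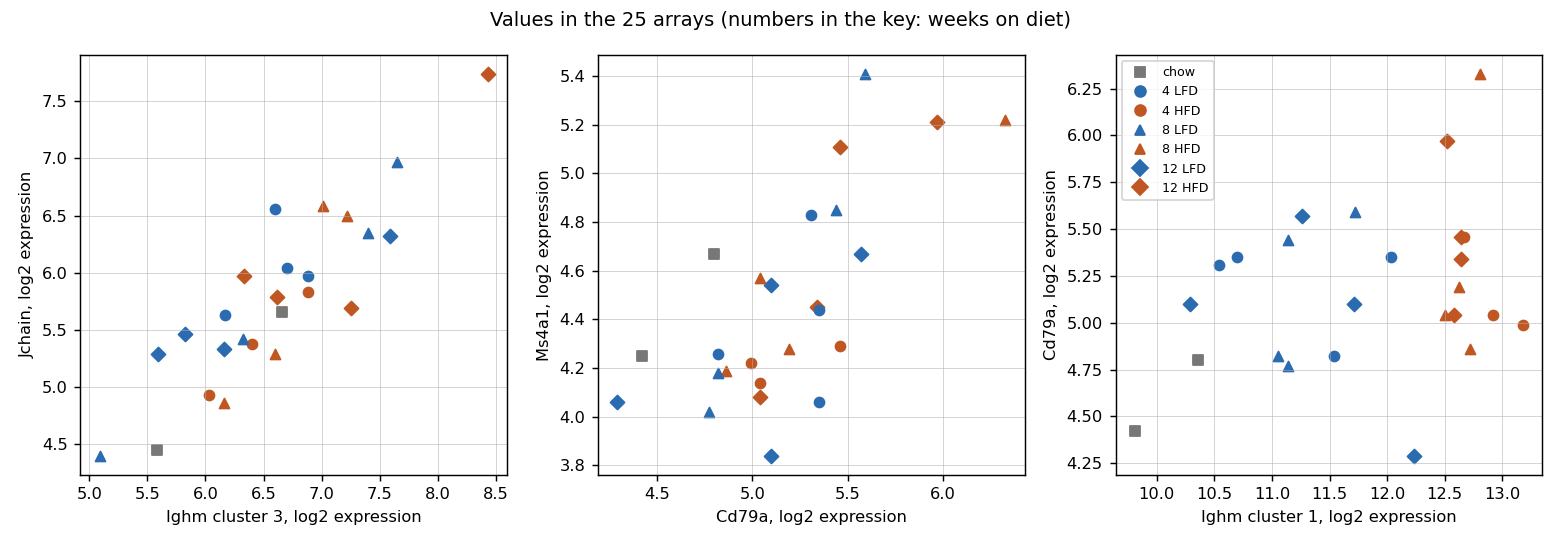
Log2 expression of Jchain against Ighm cluster 3, of Ms4a1 against Cd79a and of Cd79a against Ighm cluster 1; each point is 1 of 25 arrays, coloured by diet, with a marker for weeks on diet. The first 2 panels rise together (r = 0.88 and 0.70), and in the third the LFD and HFD arrays part along cluster 1 with r = 0.30.

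The genes most like each profile over the 25 arrays are given by Pearson's r as a description; the single-cluster profiles were chosen after the values had been seen, and genes with provisional names were passed over. For the mean of the 9 standardised genes they were Tlr2 (0.76), Smurf2 (0.70), B3gnt5 (0.69), Sash3 (0.69), Mageb18 (0.68) and Knl1 (0.68). With group means removed they were Vmn1r50 (0.77), Olfr1015 (0.77), Olfr1496 (0.76), Fstl5 (0.76), Zfp936 (0.75) and B3gnt5 (0.75), so B3gnt5 was the 1 gene on both. For Ighm cluster 1 they were Edem1 (0.93), Vgll3 (0.93), Anxa5 (0.93), Srpx2 (0.92), Prr32 (0.92) and Anxa6 (0.91), none of them an immunoglobulin gene. With group means removed they were Prr32 (0.86), Hr (0.83), Dusp8 (0.79), Csmd2os (0.78), Nek6 (0.77) and Atp2a3 (0.76), so Prr32 was the 1 gene on both. Edem1, Anxa5 and Atp2a3 were also among the genes called higher on HFD at each time. For cluster 3 they were Jchain (0.88), 4 kappa variable segments (0.79 to 0.83) and Cxcr6 (0.73), and with group means removed Jchain and the same 4 segments again came first. For Cd79a they were Jchain (0.68), Cxcl13 (0.65), Trappc2 (0.64), B3gnt5 (0.64) and a pair of kappa variable segments. The 25 arrays share their groups and their organ admixture, so these values are not independent of either.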

How the data were processed

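Total RNA of 25 mice was hybridised to Affymetrix Mouse Gene 2.0 ST arrays. Per the submitters' processing notes, the authors used the Transcriptome Analysis Console 4.0.2; which background correction and normalization it ran is not stated. The authors deposited log2 values, a scale inferred from their span (1.73 to 14.13). Symbols came from the platform annotation, where 23521 clusters had 1 symbol, 1814 several and 9137 none.

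The main model was a limma fit (version 3.58.1, R 4.3.3) of 7 groups on the 25 arrays (18 residual degrees of freedom), with Benjamini-Hochberg adjustment over 22180 genes, or 34472 clusters for the Ighm clusters, and calls at an adjusted p under 0.05. The fit was tested on simulated data. Groups did not overlap when each array of one lay above each of the other. Groups followed the labels, which call the arrays biological replicates; p-values measure the spread between them. The 9 genes and the lists were chosen with earlier results of these data known. Named were the 9 genes, a fixed panel, and from each list up to 4 called genes by smallest p at each time, or 2 where none was called; Blnk, Igkv9-120, Iglv1 and Ighg3 were added after their values were seen. Alternatives were quantile normalization, centring, a mean filter of 5, cluster means, array weights, blocks, covariates, subsets of arrays, the design text's analysis of variance and leaving out each array. No protein sequence was used here.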

Additional observations from a re-analysis of the deposited data

Results flagged for a closer look

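In 7 cases 1 array of a group of 4 stood apart from the other three; with 75 such groups looked at, and about 1 in 20 expected by chance, this number has no weight of its own. LFD 8-week array 2 read 11.72 for Ighm cluster 1 (others 11.05 to 11.14) and 5.55 for Cd79b (others 5 to 5.09). LFD 4-week array 3 read 10.81 for Ighm cluster 2 (others 9.45 to 9.54) and 4.82 for Cd79a (others 5.31 to 5.35). LFD 12-week array 2 read 7.00 for Ighm cluster 5 (others 4.28 to 4.63), and LFD 12-week array 4 read 4.51 for Ighm cluster 6 (others 4.43 to 4.44). HFD 8-week array 4 read 4.34 for Fcrla (others 4.67 to 4.72).

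For Ighm cluster 4, every HFD array lay below every LFD array at 4 weeks (difference -0.42) and above at 12 weeks (difference 0.97). The interaction of diet and time was not called for it (adjusted p = 0.830, limma).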

How the results depend on the processing

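For 7 of the 9 genes the mean over the arrays (4.47 to 5.20) was under 5.76, the median of such means over all genes, so small changes in them may be missed. A mean filter of 5 left no value for Ms4a1, Blk, Fcrla and Pou2af1. The number of the 9 genes called was 1 at 4 weeks, 1 at 8 weeks, 2 at 12 weeks and 2 averaged. It was 0, 0, 1 and 1 with the mean of a gene's clusters. Without the arrays with high hepatocyte transcripts it was 0 at 4 weeks. Later groups held a lone array in that fit, so no count is given for them. In the arrays with high hepatocyte transcripts alone it was 0 and 1 at 8 and 12 weeks, a setting added after the data had been seen. It was 0 at 4 weeks without the arrays with epididymis transcripts, 0 at 4 weeks and 0 at 12 weeks in a fit of the compared groups alone, 1 at 12 weeks with hepatocyte and epididymis means as covariates (Cd22 0.59, adjusted p = 0.0503, limma), and 1 averaged with a fold limit of 1.5 or the design text's analysis of variance. Leaving out each array gave 0 to 1 at 4 weeks, 0 to 1 at 8 weeks, 0 to 2 at 12 weeks and 1 to 2 averaged. Differences that changed sign were small. At 4 weeks Blk was 0.013 with quantile normalization, Cd79a 0.028 with array weights, 0.041 with covariates and 0.052 without the epididymis arrays, and Ms4a1 0.0017 without them. Pou2af1 at 8 weeks was 0.030 with array weights. Without the arrays with high hepatocyte transcripts, Ms4a1 at 8 weeks was 0.09, and at 12 weeks Blk was 0.01 and Pou2af1 -0.01, with -0.11 for Pou2af1 averaged; in those arrays alone Pou2af1 at 8 weeks was 0.22 and Cd79b at 12 weeks -0.01. The cause was not tested. With single arrays left out, differences ranged at 4 weeks from -0.19 to 0.0425 for Cd79a, -0.093 to 0.093 for Blk, -0.01 to 0.12 for Cd22 and -0.05 to 0.23 for Pou2af1; at 8 weeks from -0.27 to 0.22 for Ms4a1, -0.13 to 0.053 for Tnfrsf13c, -0.20 to 0.0375 for Pou2af1, -0.13 to 0.37 for Cd79a and -0.041 to 0.25 for Cd79b; at 12 weeks from -0.0675 to 0.27 for Cd79b; and averaged from -0.0047 to 0.16 for Ms4a1. With the replicate number as a block, 1, 1, 2 and 2 of the 9 were called, and over all genes 65, 595, 1089 and 2371 against 47, 533, 989 and 2322. Arrays with the same number did not pair: their correlations ranged from -0.61 to 0.60, and 2 of 3, 0 of 4 and 1 of 4 HFD arrays agreed best with their own number at 4, 8 and 12 weeks.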
